A study of Homo sapiens with 4 samples.

Results

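The locus of FOXP1 on the short arm of chromosome 3 holds one of the denser runs of HOXB13 peaks called in LNCaP prostate cancer cells under GSK2879552. Members were all deposited HOXB13 peaks with a summit between 70900000 and 71800000 on chromosome 3 of the hg19 build, a window of 900 kb around FOXP1, whose interval runs from 71003844 to 71633140. This gave 58 of the 68049 GSK2879552 peaks and 2 of the 3507 vehicle peaks on chromosomes 1 to 22, X and Y. The window was picked because the 1 Mb from 71 to 72 Mb was among those with the most GSK2879552 peaks, so the number of peaks and their spacing are given as a description, with no test. All positions are counted from 1.

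FOXP1 encodes a forkhead transcription factor that acts mostly as a repressor, binds DNA as a dimer and is known in the prostate as an androgen-responsive gene in a region lost in part of prostate cancers. HOXB13, a homeobox factor of the prostate epithelium, binds with the androgen receptor and FOXA1 at many enhancers. Its homeodomain is known to prefer sites with a TAAA end, such as CCAATAAA, and CTCGTAAA where the CG is methylated. GSK2879552 blocks the demethylase LSD1 (gene KDM1A), which removes methyl groups from histone H3 and can act with repressors as well as with the androgen receptor.

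LNCaP, a long-established line from a lymph node metastasis of prostate cancer, responds to androgen. Cells in medium with 5% CSS were labelled as given 50 µM GSK2879552 for 4 hours or as vehicle control, and binding was measured by chromatin immunoprecipitation with an antibody to HOXB13 followed by sequencing. The treatment text names the inhibitor for all 4 samples, and only titles and descriptions mark 2 of them as vehicle. The samples were 2 lanes of 1 library per treatment and each treatment had 1 peak list, so there is no error between cultures, and intervals cover counting error only. The depth was read from the peaks themselves. Each deposited fold enrichment is the pileup (overlapping extended tags) at the summit over the local background of the same peak, both raised by 1, and together with the deposited p-value it gave back a whole pileup for all 58 members. Genome-wide, the background came to 2.79 extended tags per position with GSK2879552 and 0.443 with vehicle, a ratio of 6.31. The smallest peak width, taken as the length of an extended tag, was 139 bp with GSK2879552 and 100 bp with vehicle. The ratio is thus not one of tag numbers alone. Vehicle and inhibitor differed together with depth.

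Both ends of the gene carried a GSK2879552 peak. The start was taken as the upper end of the gene interval, 71633140, and distances from the start are counted from it. There, a pair of peaks with summits 270 bp apart flanked this position. The first ran from 71633090 to 71633275 and contained position 71633140, with its summit at 71633177, 37 bp before this end of the interval. The other ran from 71632797 to 71633011, with its summit 233 bp into the gene. The 2 were alike in height, with fold enrichments of 4.06 and 4.00 at 22 tags in both, over local backgrounds of 4.67 and 4.75 tags. Neither was a strong peak of the list, since 58.1% and 60.4% of all GSK2879552 peaks had a fold enrichment at least as high. No vehicle peak was called there. At the other end of the gene, a peak from 71003806 to 71003979 contained position 71003844, with its summit 33 bp inside the gene, 18 tags of pileup and a fold enrichment of 4.35.

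Because the data place a pair of peaks at the start of FOXP1, the 250 bases before the most upstream of the 6 FOXP1 starts in RefSeq are shown here, with bases matching a HOXB13 core motif in capitals. The sequence is from RefSeq on GRCh38.p14, at chr3:71583729-71583978 on the reverse strand, 5′ to 3′ in the direction of the gene. Its coordinates are not those of the hg19 peaks, and whether this start is the upper end of the hg19 interval was not tested.
FOXP1 promoter: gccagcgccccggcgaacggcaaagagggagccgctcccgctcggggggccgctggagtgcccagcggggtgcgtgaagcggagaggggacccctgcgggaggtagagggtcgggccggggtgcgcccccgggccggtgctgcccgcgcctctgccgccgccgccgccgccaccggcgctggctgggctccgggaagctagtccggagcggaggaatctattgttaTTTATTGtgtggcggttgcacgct
The window has a GC content of 74.0%. It holds TTTATTG, which is CAATAAA on the opposite strand, 24 to 18 bases before the start. Searched on both strands, CAATAAA was found in the 250 bases before 1287 of 35116 RefSeq starts (3.66%) and before 1 of the 6 FOXP1 starts. The longer CCAATAAA, which contains it, was found before 303 starts (0.863%) and CTCGTAAA before 41 (0.117%), and neither before any of the 6 FOXP1 starts. A match of letters is a description of the sequence and does not show a binding site. Sequences under the other peaks were not analysed here, since no genome of the hg19 build was used.

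**Figure D1:**
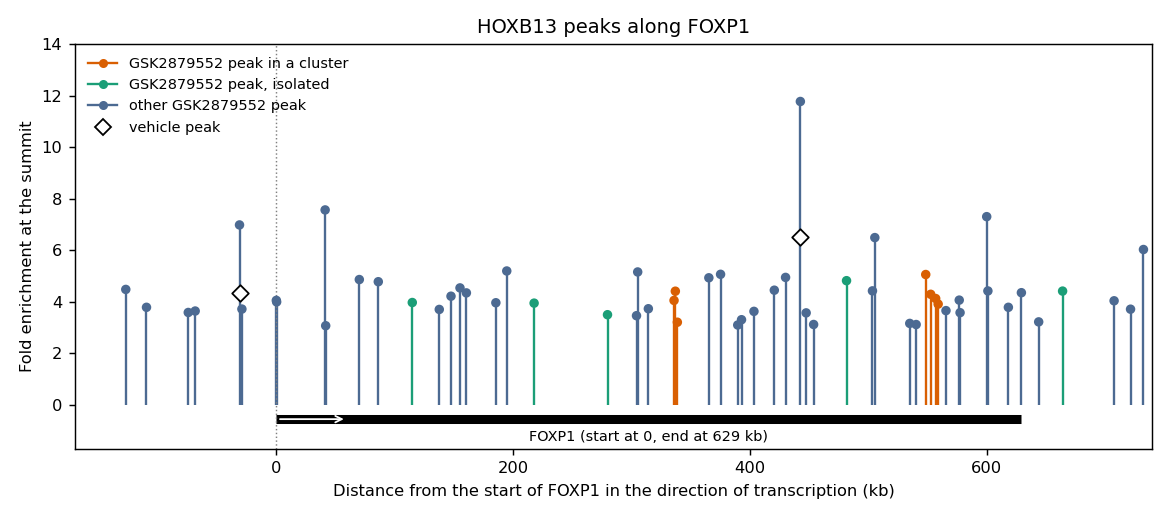
HOXB13 peaks along FOXP1, plotted by the distance of their summit from the start of the gene in the direction of transcription (kb, horizontal) and their deposited fold enrichment (vertical, relative to the background around each peak). Lines with dots are the 58 GSK2879552 peaks, orange in clusters, green when isolated and blue otherwise, diamonds are the 2 vehicle peaks, and the black bar is FOXP1. The highest GSK2879552 peak, at 11.8, stands 443 kb into the gene and carries the higher of the 2 vehicle peaks.

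Peaks were spread over the whole gene and were more numerous towards its end. The gene held 46 of the 58 members in 629.3 kb, or 7.31 per 100 kb. The flank beyond the end of the gene held 5 members in 103.8 kb (4.81 per 100 kb), and the flank before its start held 7 in 166.9 kb (4.20 per 100 kb). When the gene was divided into 4 parts of 157.3 kb each, counted from its start, these held 9, 8, 13 and 16 members. The part at the end of the gene thus had 10.2 peaks per 100 kb and the one after the start 5.72, with 5.09 and 8.26 between them. The peaks covered 1.15%, 1.25%, 1.98% and 2.63% of the 4 parts, rising in each towards the end of the gene. Median fold enrichment did not follow it and was 4.22, 3.96, 4.05 and 4.21. The local background was higher where peaks were more numerous, with medians of 1.41, 1.32, 1.57 and 1.65 times the genome-wide one in the 4 parts. The part of this background in the number of peaks was not tested, and DNA copy number was not examined.

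The members were of ordinary height. Their fold enrichment ran from 3.07 to 11.8 with a median of 4.05 and quartiles of 3.65 and 4.72, beside a median of 4.22 over all GSK2879552 peaks. A fold enrichment of at least 5 was reached by 10 of 58 members (17.2%, exact 95% binomial interval 8.59 to 29.4), beside 26.6% of all GSK2879552 peaks. The median pileup was 19 tags in the members and 18 in the whole list, while the median local background was 1.48 and 1.22 times the genome-wide one. A member was thus about as tall as the usual peak and stood on a higher background. Widths ran from 139 to 445 bp, with a median of 207.5 bp beside 199 bp in the whole list. Of the members, 26 had a −log10 q-value under 5, or 44.8%, beside 45.2% of all GSK2879552 peaks.

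The 5 members of highest fold enrichment stood far apart from each other along the locus. The first was 443 kb into FOXP1, from 71190456 to 71190846, with a fold enrichment of 11.8, from 62 tags of pileup over a local background of 4.35 tags. Only 0.416% of all GSK2879552 peaks had a fold enrichment at least as high. The next lay 41.2 kb into the gene, from 71591802 to 71592069, with 7.56 and a pileup of 40 tags over 4.42. The one after it lay 600 kb into the gene, near its end, from 71032956 to 71033293, with 7.30 and a pileup of 60 tags over 7.35. These last 2 had nearly the same fold enrichment at pileups of 40 and 60 tags, since the background was higher at the taller one. The fourth lay outside the gene, 31.1 kb before its start, from 71664163 to 71664438, with 6.98 and a pileup of 35 tags over 4.16. The fifth was 506 kb into the gene, from 71127430 to 71127826, with 6.49 and a pileup of 34 tags over 4.39. The 5 together held 17.9% of the 1292 tags that the pileups of all members summed to.

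**Figure D2:**
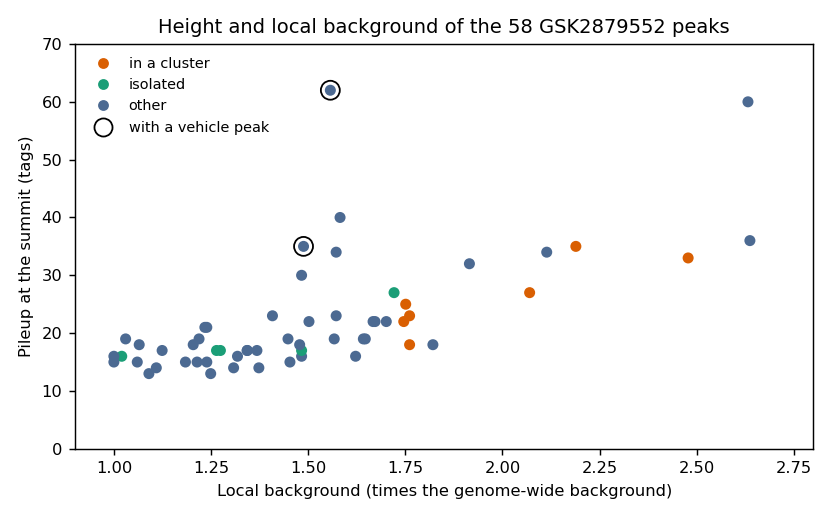
Pileup at the summit (tags, vertical) against local background (times the genome-wide background, horizontal) for the 58 GSK2879552 peaks of the FOXP1 window, coloured as clustered, isolated or other, with a ring around the 2 that overlap a vehicle peak. Most members lie between 13 and 25 tags, the 2 tallest have 62 and 60 tags, and the 7 clustered peaks all lie at 1.75 times the genome-wide background or above.

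Neighbouring GSK2879552 summits in the window were a median of 10.9 kb apart. The 57 gaps ran from 270 bp to 62.0 kb, with quartiles of 5.39 and 22.8 kb. Over all GSK2879552 peaks the median gap was 22.6 kb, with quartiles of 8.74 and 50.4 kb. A shorter gap follows from the choice of a dense window. Gaps of more than 40 kb made up 3 of the 57 (5.26%) beside 31.8% of all gaps, and gaps of at most 2.5 kb made up 10 (17.5%) beside 10.6%. Another summit within 2.5 kb was found for 20 of 58 members (34.5%, 22.5 to 48.1) beside 19.9% of all GSK2879552 peaks, a distance chosen after the data were seen. Since neighbours count each other, these members are not independent, and the interval is too narrow. The widest gap lay inside FOXP1, from 218 to 280 kb after its start, between summits at 71353440 and 71415398. The next lay beyond the end of the gene, between summits at 70925576 and 70969051 (43.5 kb). Another followed the start of the gene directly, from the pair of peaks there to the peak 41.2 kb into the gene (41.0 kb).

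**Figure D3:**
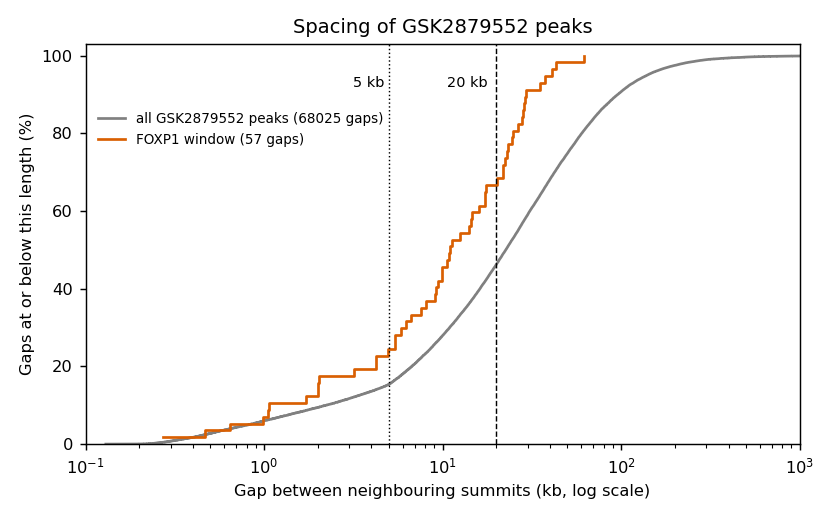
Cumulative share of gaps (%, vertical) between neighbouring GSK2879552 summits at or below a given length (kb, log scale, horizontal), for the 57 gaps of the FOXP1 window (orange) and the 68025 gaps of all chromosomes used (grey), with lines at 5 and 20 kb. The curve of the window lies left of the other at most lengths, with medians of 10.9 and 22.6 kb, and the grey curve bends at 5 kb.

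Few members stood alone. A peak was called isolated when no other summit of its list lay within 20 kb, which held for 5 of 58 members (8.62%, 2.86 to 19.0) beside 30.7% of all GSK2879552 peaks. The most isolated, 280 kb into the gene at 71353303 to 71353562, had its nearest neighbour 24.5 kb away, 17 tags of pileup and a fold enrichment of 3.50. The next were at 71415321 to 71415535, with 23.1 kb, a fold enrichment of 3.95 and 17 tags, and at 71518325 to 71518544, with 22.8 kb, 3.97 and 17 tags. The first and second of these lie on either side of the widest gap of the window. The 5 isolated members had fold enrichments from 3.50 to 4.82 and none reached 5. Since the window was chosen as dense, their small number follows in part from that choice.

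A pair of short clusters lay within FOXP1, the larger near its end. A cluster was a chain of at least 3 peaks with summit gaps of at most 5 kb. Clusters held 7 of 58 members (12.1%, 4.99 to 23.3) beside 6.14% of all GSK2879552 peaks, and none had 5 or more peaks. The 7 lay in 2 clusters and are not independent, so the interval is too narrow. Since the window was chosen as dense, their share follows in part from that choice. The cluster of 4 peaks ran from 71074083 to 71084781, 548 to 559 kb into the gene, with fold enrichments of 3.91, 4.13, 4.29 and 5.06 and pileups of 22, 27, 33 and 35 tags. From the end of the gene towards its start, both values rose from each of these 4 peaks to the next. The cluster of 3 peaks ran from 71294300 to 71297373, 336 to 339 kb into the gene, with fold enrichments of 3.21, 4.41 and 4.05 and pileups of 18, 25 and 23 tags. The 7 clustered members had local backgrounds of 1.75 to 2.48 times the genome-wide one and the 5 isolated members of 1.02 to 1.72 times. Their median fold enrichments were close, 4.13 and 3.97, at median pileups of 25 and 17 tags. The local background counts tags in 10 kb around the summit, so close peaks also count in each other's background. The part of this in the fold enrichments was not tested. No rule on clusters of 5 or more applied, and these clusters were named after their values were seen.

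A further 19 members were in pairs at most 5 kb apart (32.8%), beside 21.9% of all GSK2879552 peaks. The 32 with no summit within 5 kb made up 55.2% of the members, beside 72% of all GSK2879552 peaks. These shares follow in part from the choice of a dense window, and the differences were not tested. One of the paired members, at the lower edge of the window, had its partner just outside. Among the 9 pairs inside the window, the distance between summits ran from 270 bp to 4.95 kb. The pair at the start of FOXP1 was the closest and the most even, with fold enrichments of 4.00 and 4.06. The next closest, 41.2 kb into the gene with 469 bp between summits, was the least even of the pairs under 2.5 kb, with 3.07 and 7.56.

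Both vehicle peaks of the window overlapped a GSK2879552 peak, as did 91.2% of all vehicle peaks. In the other direction, 2 of 58 GSK2879552 members had a vehicle peak (3.45%, 0.420 to 11.9) beside 4.59% of all GSK2879552 peaks, so the share of members with vehicle support was near the background. The first vehicle peak lay at 71190512 to 71190664 within FOXP1, on the member of highest fold enrichment. Its summit was 6 bp from that of the GSK2879552 peak. Its fold enrichment was 6.51, with 10 tags over a local background of 0.690, and a −log10 q-value of 5.22. In the GSK2879552 library the pileup there was 62 tags over 4.35. Relative to the genome-wide value the local background was 1.56 times in both libraries. The second vehicle peak lay at 71664232 to 71664331, 31.1 kb before the start of FOXP1, with its summit 23 bp from that of the fourth strongest member. It had a fold enrichment of 4.35, a pileup of 6 tags over 0.610 and a −log10 q-value of 1.77. This is close to the limit of the list, as 98.2% of the vehicle peaks had a −log10 q-value at least as high, and its width of 100 bp was the smallest of the list.

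The 2 members with vehicle support were not the 2 tallest. The tallest member, with 62 tags, had a vehicle peak, and the second tallest, with 60 tags, 600 kb into the gene, had none. The third tallest, with 40 tags, 41.2 kb into the gene, had none either. The highest fold enrichments without a vehicle peak were those of these 2 sites, 7.56 at 40 tags and 7.30 at 60 tags, and of the site 506 kb into the gene with 6.49. Over all GSK2879552 peaks a vehicle peak was found at 0.579% (0.507 to 0.657) below 20 tags, 2.94% (2.70 to 3.19) at 20 to under 30 and 12.1% (11.2 to 13.0) at 30 to under 40. It was found at 36.0% (34.1 to 37.9) at 40 to under 60 and at 72.9% (70.2 to 75.4) at 60 or more. The members fell into these classes as 34, 13, 8, 1 and 2, or 58.6%, 22.4%, 13.8%, 1.7% and 3.4%. Over all GSK2879552 peaks the classes held 60%, 27.5%, 7.2%, 3.7% and 1.7%. A vehicle peak was found at 0, 0, 1, 0 and 1 of the members. At the vehicle-supported shares of all peaks in each class, 3.36 members would have one. The vehicle library had fewer tags, and depth and treatment differed together. The reason why the other 56 members had no vehicle peak was thus not tested. Nor was it tested whether HOXB13 bound at these sites under vehicle, and a missing peak is not read as a lack of binding. Vehicle peaks at the genome-wide background started at a fold enrichment of 4.16, at 5 tags over 0.443. In the deeper library, 32 of the 58 members had a fold enrichment below 4.16. Over the 2813 vehicle peaks with a relative background in the range of the members, the lowest fold enrichment was 3.87, and 22 members lay below it. The 1 added to pileup and background lowers fold enrichment more at the small vehicle background, so the 2 lists are not on one scale. These counts thus do not tell how many members would reach the vehicle limit. Whether a site of equal fold enrichment would have been called in the vehicle library was not tested.

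**Figure D4:**
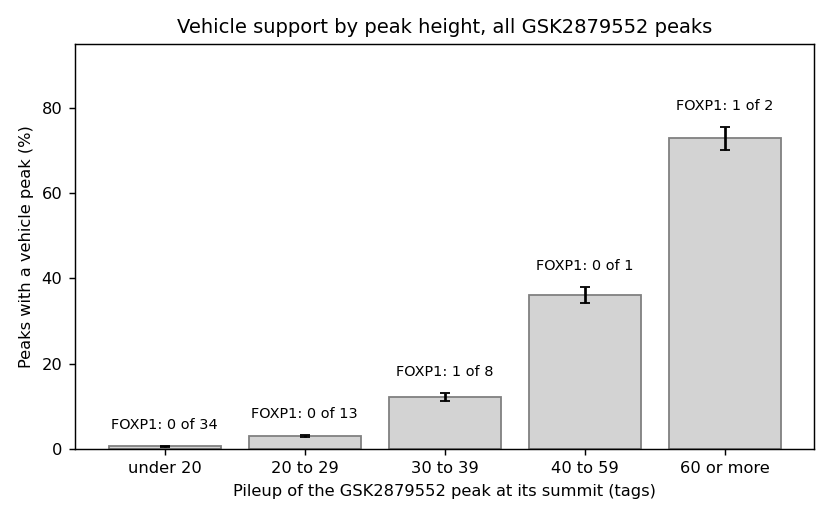
Share of all GSK2879552 peaks with an overlapping vehicle peak (%, vertical, bars start at 0, error bars are exact 95% binomial intervals) by the pileup of the GSK2879552 peak at its summit (tags, horizontal). The text over each bar gives the members of the FOXP1 window with a vehicle peak of those in the class. The share rises from 0.579% to 72.9%. The 2 classes under 30 tags hold 47 of the 58 members (58.6% and 22.4%), beside 60% and 27.5% of all GSK2879552 peaks.

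Vehicle support in the bin with FOXP1, at 3.39%, was near the 4.59% over all GSK2879552 peaks and is given here beside other dense bins. The 5 bins of 1 Mb with the most GSK2879552 peaks, leaving out bins near long intervals without peaks, were on chromosome 11 from 23 to 24 Mb with 72, chromosome 17 from 46 to 47 Mb with 60, and chromosomes 12 from 54 to 55 Mb, 21 from 17 to 18 Mb and 3 from 71 to 72 Mb with 59 each. A vehicle peak overlapped 8.33%, 8.33%, 20.3%, 5.08% and 3.39% of them, in this order. A bin on chromosome 14 from 30 to 31 Mb, with 56 GSK2879552 peaks, had nearly the same share as that with FOXP1, 3.57% (0.435 to 12.3). Differences between bins were not tested. The exact intervals were 0.413 to 11.7 for the bin on chromosome 3 and 11.0 to 32.8 for that on chromosome 12, and the other 3 overlapped that of chromosome 3 widely. In the same order of the 5 bins, peaks reaching a fold enrichment of 5 made up 19.4%, 31.7%, 44.1%, 15.3% and 18.6%. Peaks in clusters made up 11.1%, 16.7%, 20.3%, 10.2% and 11.9%. The bins were chosen by their number of peaks, with 1 library per treatment.

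At the edges of the window, the first member inside the lower edge was 770 bp from it, with a fold enrichment of 6.03 at 30 tags. The first peak outside was 710 bp from it, with 3.65 and 18 tags. At the upper edge these were 39.7 kb inside, with 4.48 and 16 tags, and 11.7 kb outside, with 3.95 and 14 tags. The 2 peaks at the lower edge thus form a pair that the window cuts.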

How the data were processed

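HOXB13 chromatin immunoprecipitation and sequencing was deposited as 2 peak lists, 1 for the 2 lanes of each treatment. The submitters' processing notes list MACS2 2.1.2, BWA 0.7.2 and SAMtools 0.1.18, with hg19 and GRCh37 as builds. Any input control and the calling options were not given in the sources used here. In 100% of rows the deposited score equalled the −log10 q-value times 10, rounded down. The deposited fold enrichment (a ratio), −log10 p-value and −log10 q-value at the summit are the authors' own values per peak, and the deposited offset gave the summit.

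Peaks off chromosomes 1 to 22, X and Y (676 of 68725 and 215 of 3722) were dropped. The pileup k and local background λ behind each peak follow from its Poisson p-value and its fold, (k + 1)/(λ + 1). They were found to within 0.001 on the −log10 p scale (Python 3.11.15, SciPy 1.17.1). Of 1000 simulated peaks, 100% were recovered, but these were made with the same formulas, so this checks the code only. At 56 of 56 members above the genome-wide background λ was a whole number of tags in 10 kb. Overlap meant at least 1 bp. Intervals of shares are exact (Clopper-Pearson) 95% intervals, which treat peaks as independent. The gene interval came with the choice of the locus, and exons and introns were not analysed here. Named peaks were all vehicle members and their partners, the 5 members of highest fold enrichment, the 3 highest without a vehicle peak, those at the gene's start, the 3 most isolated, the 3 widest gaps and those at the window's edges. Peaks at the gene's end and clusters were added after their values were seen. The locus and these rules were chosen with earlier results of these data known. Alternatives covered stricter q-values and folds, other windows, overlaps, cluster gaps and isolation distances.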

Additional observations from a re-analysis of the deposited data

How the results depend on the processing

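Of 38 alternative values, 19 stayed within 1.5 times (counts) or within the 95% interval of the value (median spacing 8.05 to 17.3 kb, median fold enrichment 3.79 to 4.41) and 19 moved. With a −log10 q-value of at least 5, the window held 32 GSK2879552 and 1 vehicle peaks, with a median spacing of 23.2 kb, 4 peaks in clusters, 8 isolated and a median fold enrichment of 4.51. With a GSK2879552 fold enrichment of at least 5, it held 10 peaks, of which 20% had a vehicle peak, with a spacing of 70.1 kb, 0 in clusters, 10 isolated and a median fold enrichment of 6.26. The isolated and clustered sites thus depended on which peaks counted as neighbours. The gene interval alone held 1 vehicle peak. Clusters held 3 members with gaps of at most 2 kb, 20 at 10 kb, 35 at 15 kb, and 0 when 5 peaks were required. With limits of 10 and 30 kb, 15 and 0 members were isolated. The share with a vehicle peak was 3.45% under each of the 3 other definitions of overlap. Leaving out a lane was not run, as both lanes of a treatment share 1 list. No paired analysis was possible because each treatment had 1 list for its 2 lanes. The 2 vehicle members had 10 and 6 tags, and depth and treatment cannot be told apart.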

Other observations

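The strongest sites of the FOXP1 window often had another site close by, a pattern noticed, like the limit of 6 used for it, after the values were seen. Of the 6 members with a fold enrichment of at least 6, 5 had another summit within 2.5 kb (83.3%, exact 95% interval 35.9 to 99.6). Of the 52 members below 6, 15 had one (28.8%, 17.1 to 43.1). Over all GSK2879552 peaks the order was the other way, with 15.3% (14.5 to 16.0) of those with a fold enrichment of at least 6 and 20.6% (20.3 to 20.9) of the others. At a limit of 5, as used elsewhere, 6 of 10 members had another summit within 2.5 kb (60%, 26.2 to 87.8), beside 14 of the 48 below it (29.2%, 17.0 to 44.1). Over all GSK2879552 peaks these shares were 15.6% and 21.5%. All these intervals treat peaks as independent, though neighbours count each other. The companions of the 5 members above 6 had fold enrichments of 3.07, 4.42, 3.72, 4.42 and 3.65. That these are lower follows in part from picking the members of highest fold enrichment. The companions lay 469 bp, 1.05 kb, 2.01 kb, 2.02 kb and 1.48 kb away, and the last is just outside the window. The exception was the strongest member of all, 443 kb into FOXP1, whose nearest summit was 4.95 kb away. Whether this is particular to the locus was not tested.

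Gaps between neighbouring GSK2879552 summits changed in number at 5 kb, a feature of the whole list that bears on clusters at FOXP1. Over all chromosomes used there were 1268 gaps of 3 to 4 kb and 1203 of 4 to 5 kb, but 1839 of 5 to 6 kb and 1788 of 6 to 7 kb. In steps of 500 bp there were 611 gaps just under 5 kb and 933 just over it, a ratio of 1.53. On chromosome 3 the numbers were 88 for 4 to 5 kb and 145 for 5 to 6 kb. In the FOXP1 window they were 3 and 3, too few to show such a step. Peaks whose nearest summit lay 4 to 5 kb away stood on a background of 1.41 times the genome-wide one (median) with a median fold enrichment of 4.12. For those at 5 to 6 kb these were 1.25 times and 4.26. The local background counts tags in 10 kb, which reaches 5 kb to either side of a summit. Its part in the number of close pairs was not tested.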
